A study of Mus musculus with 2 samples.

Results

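The blood-brain barrier genes described here are 10 genes that mark the endothelial cells lining brain capillaries, chosen by gene symbol from 55536 annotated genes. They are the tight-junction genes Cldn5, Ocln and Tjp1, the nutrient carriers Slc2a1 and Mfsd2a, the drug and anion transporters Abcb1a, Abcg2 and Slco1a4, and the vessel genes Pecam1 and Flt1. All 10 were found in every table. They were measured in total RNA from the left cerebral cortex. The donors were 2 female mice, aged 10 days, of the strain B6CASTF1/J. Libraries took 300 ng of RNA each, depleted of ribosomal RNA, with ERCC spike-ins added. B6CASTF1/J names the hybrid offspring of a C57BL/6J and a CAST/EiJ parent. The labels call the libraries biological replicates 1 and 2 of 1 group. No treated, older or male animal was analysed here, so the design holds no comparison between groups, and 2 animals allow no exact two-sided p below 0.5. The SD describes the spread between these 2 animals only, since the sources used here do not say whether they were littermates or were processed together. Genes held 29867112 reads in replicate 1 and 31031340 reads in replicate 2.

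Capillaries in most organs let small solutes pass between and through their endothelial cells, whereas those of the brain are closed by continuous tight junctions, carry few transport vesicles and pump many lipophilic compounds back into the blood. Nutrients such as glucose and the omega-3 fatty acid docosahexaenoic acid therefore cross on dedicated carriers. Wnt signalling to the endothelium and contact with pericytes are known to induce and maintain this state, and in the mouse the barrier is already closed to tracers at birth while the cortical capillary network still grows. The libraries are of whole cortex, in which endothelial cells are a minority, and several of these genes are also made by other cells. In such tissue, fewer endothelial cells and less RNA per endothelial cell cannot be told apart.

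Several of these genes make transcripts that differ in a short stretch of coding sequence, and the sequences that set them apart are given first because the transcript levels turn on them. All were read from the GENCODE M21 transcripts (mm10), in the direction of transcription. For Flt1, 30 bases shared by both forms stand in lower case. The capitals mark, in the soluble form, bases that the full-length form lacks, up to and including the stop codon (chr5:147639130-147639254, minus strand), and in the full-length form the bases of the next exon, which is spliced on across an intron.
Flt1-203, soluble: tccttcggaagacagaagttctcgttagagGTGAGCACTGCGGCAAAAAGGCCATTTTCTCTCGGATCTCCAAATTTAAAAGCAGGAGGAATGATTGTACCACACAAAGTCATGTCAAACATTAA
Flt1-202, full length: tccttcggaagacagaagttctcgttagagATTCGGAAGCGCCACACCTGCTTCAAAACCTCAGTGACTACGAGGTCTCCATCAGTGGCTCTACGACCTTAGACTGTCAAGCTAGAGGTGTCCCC
The soluble form ended in exon 13, of 4375 bases, which ran 4066 bases past the shared splice site into the intron of the full-length form. It coded for 688 codons, of which the last 31 were its own, against 1333 codons in the full-length form.

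The tight-junction scaffold gene Tjp1 has an optional exon of 240 bases, or 80 codons, known as the alpha exon, which was exon 20 of 28 in Tjp1-202 (chr7:65314093-65314332, minus strand).
Tjp1 alpha exon: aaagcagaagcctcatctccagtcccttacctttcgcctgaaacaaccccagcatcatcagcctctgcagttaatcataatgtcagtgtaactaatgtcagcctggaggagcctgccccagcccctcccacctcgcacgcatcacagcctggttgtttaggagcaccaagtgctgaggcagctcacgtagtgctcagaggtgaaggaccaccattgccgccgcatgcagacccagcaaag
A second stretch of 60 bases, or 20 codons, lengthened a later exon of Tjp1-201 to 144 bases, against 84 bases in Tjp1-202 (chr7:65299670-65299729, minus strand).
Tjp1 exon extension: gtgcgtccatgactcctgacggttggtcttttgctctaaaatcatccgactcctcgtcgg

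The adhesion gene Pecam1 has 2 optional exons that encode parts of its cytoplasmic tail. They were exons 14 and 15 of 16 in Pecam1-204 and had 57 bases (chr11:106671742-106671798, minus strand) and 23 bases (chr11:106662002-106662024, minus strand).
Pecam1 larger optional exon: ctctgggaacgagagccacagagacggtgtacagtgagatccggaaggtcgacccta
Pecam1 smaller optional exon: atctcatggaaaacagatactct

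All 10 barrier genes were expressed in both libraries. Levels are given in TPM, an abundance per transcript length that is scaled to the same total in each library. With detection set at 1 TPM or more in each library, 10 of 10 were detected, against 26.9% of all genes and 59.1% of nuclear protein-coding genes. All 10 also lay above the median nuclear protein-coding gene, which stood at 4.04 TPM in replicate 1 and 3.70 TPM in replicate 2. For Ocln, at 4.76 and 4.02 TPM, the credible intervals given below held these medians. The median of the 10 genes was 12.1 ± 0.562 TPM (SD, n = 2), with 12.5 TPM in replicate 1 and 11.7 TPM in replicate 2. The mean level of Tjp1, the highest, was 13.4 times that of Ocln, the lowest.

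**Figure D1:**
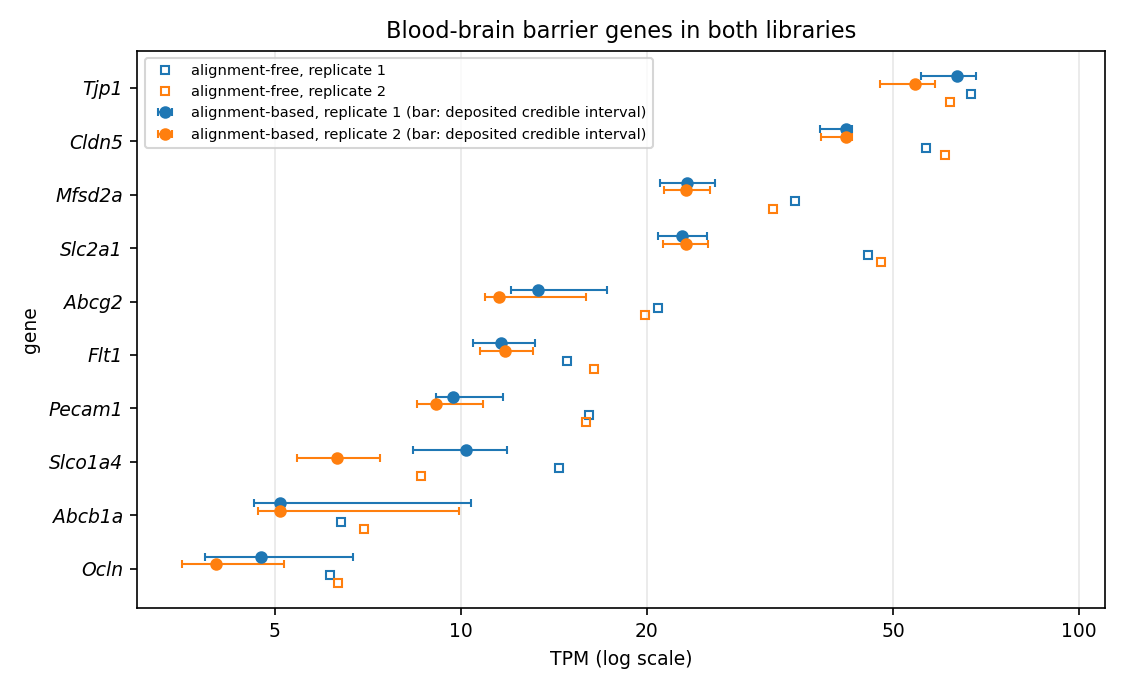
TPM on a log scale of each barrier gene in both libraries, with alignment-based values as filled circles (bars are the deposited credible intervals, whose level is not given) and alignment-free values as open squares. Tjp1 and Cldn5 stand at the top and Abcb1a and Ocln at the bottom in both libraries, and the circles of replicates 1 and 2 lie furthest apart for Slco1a4.

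Among the tight-junction genes, Tjp1 and Cldn5 were the 2 highest of the 10 and Ocln the lowest. Cldn5 encodes claudin-5, the main claudin of brain endothelium, whose loss in mice opens the barrier to small molecules (chr16:18776847-18778262, plus strand, a gene of 1 exon). It had 41.9 TPM in replicate 1 and 42.0 TPM in replicate 2, from 1034 and 1132 reads, a mean of 42.0 ± 0.0283 TPM (SD, n = 2). By this measure the libraries gave nearly the same level, which was higher than that of 86.4% and 87.3% of nuclear protein-coding genes. The alignment-free values were further apart, at 56.6 and 60.6 TPM, a mean of 58.6 ± 2.86 TPM. Ocln encodes occludin, a membrane protein of the same junction strands (chr13:100496507-100552718, minus strand), and had 4.76 and 4.02 TPM in replicates 1 and 2, from 221 and 218 reads. Its credible intervals, 3.86 to 6.68 TPM and 3.54 to 5.18 TPM, overlapped widely. Tjp1 encodes ZO-1, the scaffold that ties claudins and occludin to actin, and is known to be made by many cell types besides endothelium (chr7:65296165-65527781, minus strand). Tjp1 had 63.5 TPM in replicate 1 and 54.2 TPM in replicate 2, from 3907 and 4055 reads, a mean of 58.9 ± 6.55 TPM.

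The first place of Tjp1 rested on short transcripts. Its 4 transcripts under 1000 bases took 52.3% of its TPM in replicate 1 and 46.5% in replicate 2 but 6.61% and 5.56% of its reads, because the level per length gives a short transcript much weight for each read. Counting only transcripts of 1000 bases or more, a measure added after the levels were seen, Tjp1 had 30.3 and 29.1 TPM, below the 41.9 and 42.0 TPM of Cldn5. In replicate 2 the leading Tjp1 transcript in the alignment-based table was Tjp1-205, of 551 bases, with 26.5% of the gene's TPM, just above the 25.2% of the long Tjp1-201. The other long form, Tjp1-202, had 22.1% in replicate 1 and 25.2% in replicate 2.

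Close to equal amounts of Tjp1 messages with and without the alpha exon were found by alignment. Among Tjp1-202, which has the exon, and Tjp1-201 and Tjp1-207, which lack it, the share with the exon was 46.3% in replicate 1 and 47.0% in replicate 2, a mean of 46.6 ± 0.520% (SD, n = 2). The reads assigned to the form with the exon were 1823 and 1943, against 1826 and 1887 for the forms without it. The alignment-free tables put the share lower, at 33.1% and 36.7%, so the libraries were close within each quantification and the quantifications were further apart. ZO-1 with the alpha region is, as background, the form found at most epithelial junctions, and the form without it was described in endothelium.

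Both nutrient carriers stood at about 23 TPM by alignment. Slc2a1 encodes GLUT1, which moves glucose across the capillary wall and is also made by glia (chr4:119108711-119137983, plus strand). It had 22.8 and 23.1 TPM in replicates 1 and 2, from 1146 and 1274 reads, a mean of 23.0 ± 0.262 TPM. Mfsd2a encodes the carrier of lysophosphatidylcholine with docosahexaenoic acid, and mice without it have leaky barriers with more transport vesicles (chr4:122946850-122961188, minus strand). It had 23.2 and 23.1 TPM, from 825 and 930 reads, a mean of 23.2 ± 0.0707 TPM. The ranges of Slc2a1 and Mfsd2a overlapped between libraries by alignment. By the alignment-free quantification Slc2a1 stood above Mfsd2a, at 45.6 and 47.7 TPM against 34.6 and 31.9 TPM, so their order depended on the quantification.

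Slc2a1 was the carrier with a message marked for decay. The annotation lists Slc2a1-204 as a target of nonsense-mediated decay, the pathway that degrades messages with an early stop codon. The full-length Slc2a1-201 held 68.0% of the TPM of Slc2a1-201 and Slc2a1-204 together in replicate 1 and 67.0% in replicate 2, from 856 and 943 reads, against 273 and 315 reads for Slc2a1-204. By the alignment-free tables the share was 48.9% and 55.1%, and Slc2a1-204 was the leading transcript in replicate 1. Those tables also placed 29.3% and 29.0% of the gene's TPM on Slc2a1-203, of 633 bases, which the alignment-based tables put at 0 and 2.63%. Mfsd2a was simpler, with 90.8% and 94.8% on the full-length Mfsd2a-201 of 534 codons.

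**Figure D2:**
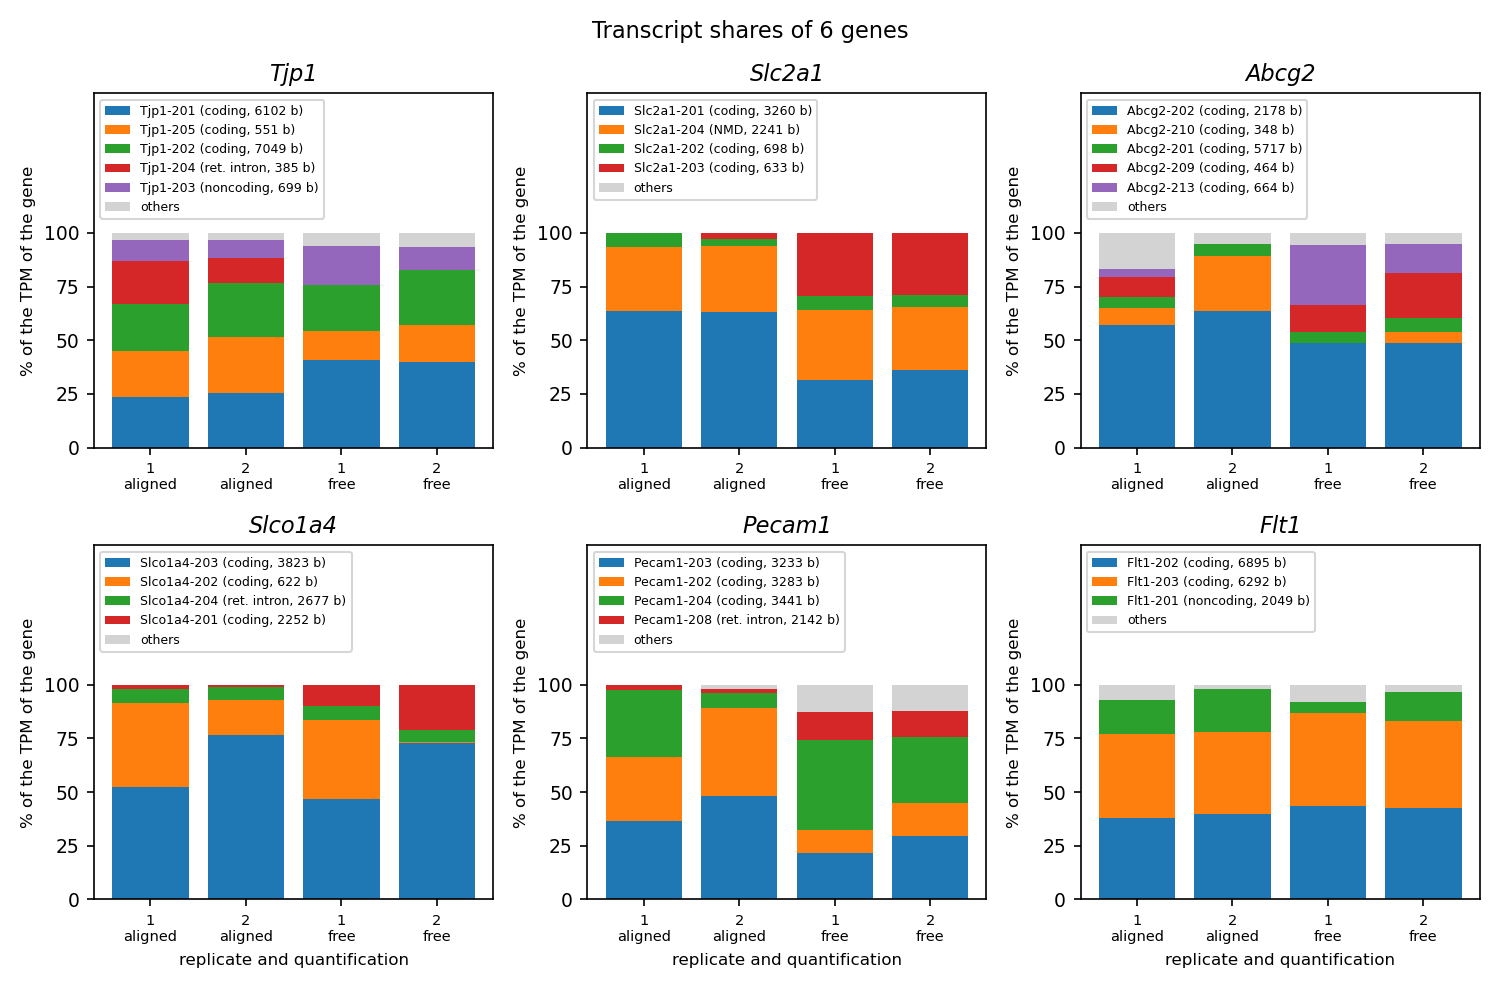
Share of each gene's TPM by transcript, in percent, as stacked bars for replicates 1 and 2 in the alignment-based (aligned) and alignment-free (free) tables, for 6 of the 10 genes. In Flt1 the blue and orange bars, the full-length and soluble forms, are near equal in all 4 tables, whereas in Slc2a1, Abcg2 and Slco1a4 short transcripts change size between tables.

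The 3 transporters of drugs and anions lay between 5 and 14 TPM. Abcg2 encodes the breast cancer resistance protein, an efflux pump (chr6:58584523-58695676, plus strand), and had 13.3 and 11.5 TPM in replicates 1 and 2, from 411 and 409 reads. Abcb1a encodes P-glycoprotein, the main efflux pump of mouse brain capillaries (chr5:8660077-8748575, plus strand), and had 5.10 TPM in both libraries, from 453 and 508 reads. Slco1a4 encodes an organic anion transporter of the OATP family that takes up bile salts, steroid conjugates and digoxin (chr6:141805440-141856199, minus strand). It had 10.2 TPM in replicate 1 and 6.30 TPM in replicate 2, a mean of 8.24 ± 2.74 TPM and the widest relative spread of the 10, from 451 and 403 reads. Read counts were fractional for Abcb1a and Slco1a4, which have close relatives that can share reads with them, and whole within 0.005 for the other 8 genes. The deposited credible interval of Abcb1a reached 10.4 TPM in replicate 1 and 9.93 TPM in replicate 2, far above its value. That of its main transcript, Abcb1a-201, was narrower, at 4.27 to 5.16 TPM and 4.40 to 5.27 TPM. The noncoding Abcb1a-204, of 129 bases, had 0 reads in both libraries, yet its interval reached 5.14 and 4.69 TPM.

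The spread of Slco1a4 lay in Slco1a4-202, a coding transcript of 622 bases. It had 3.98 TPM in replicate 1 and 1.01 TPM in replicate 2, from 39.0 and 10.8 reads, and so took 39.1% and 16.0% of the gene's TPM with 8.64% and 2.68% of its reads. The full-length Slco1a4-203 had 5.32 and 4.84 TPM, and the gene's transcripts of 1000 bases or more had 6.21 and 5.29 TPM together. In the alignment-free tables Slco1a4-202 held 36.9% and 0.632% of the gene's TPM.

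Abcg2 gave 2 transcripts of 657 codons each that begin at different positions. Abcg2-202 held 57.1% of the gene's TPM in replicate 1 and 63.5% in replicate 2, and Abcg2-201 held 5.25% and 5.58%. Transcripts that begin near the start of Abcg2-202 held 76.1% and 68.2% of the TPM of these and of those that begin further upstream. The alignment-free tables gave 79.6% and 65.8%. The upstream group held Abcg2-201 and transcripts under 1000 bases that were not shown to share its start. Of these, Abcg2-210 took 8.0% and 25.8% of the gene's TPM from 4.97 and 15.1 reads. All 9 annotated transcripts under 1000 bases together took 36.3% and 29.5% of the gene's TPM but 9.27% and 5.0% of its reads. Abcb1a-201, with 96.5% and 98.4%, accounted for nearly all of Abcb1a. In Ocln, Ocln-205 held 56.1% and 58.25% and Ocln-202 held 21.8% and 16.35%, and both encode 521 codons.

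Pecam1 and Flt1 mark vessels in all organs and lay near 10 TPM. Pecam1 encodes CD31, an adhesion molecule of endothelial contacts that platelets and leukocytes also carry (chr11:106654217-106750628, minus strand). It had 9.70 and 9.11 TPM in replicates 1 and 2, from 579 and 580 reads, a mean of 9.41 ± 0.417 TPM. Flt1 encodes VEGF receptor 1, which binds VEGF-A tightly but signals weakly (chr5:147561604-147726011, minus strand), and had 11.6 and 11.8 TPM, from 1163 and 1329 reads. Both genes gave close values in the 2 libraries.

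Soluble and full-length Flt1 were estimated at near equal amounts. The soluble form lacks the membrane anchor and the kinase and is known as a secreted trap for VEGF. Soluble Flt1-203 had 4.51 TPM in replicate 1 and 4.50 TPM in replicate 2, against 4.42 and 4.70 TPM of full-length Flt1-202. The reads assigned to the soluble form were 522 and 571, against 562 and 654 for the full-length form. The ratio of soluble to full-length was 1.02 in replicate 1 and 0.957 in replicate 2, and the soluble share of the 2 forms was 49.7 ± 1.12% (SD, n = 2). The alignment-free tables gave soluble shares of 50.2% and 48.7%. The leading form of Flt1 therefore changed from library to library in both quantifications, soluble in replicate 1 and full-length in replicate 2, with a difference too small to order them. Reads in the exons common to both forms were divided between them by estimation. The sequence that tells them apart lies in the later exons of Flt1-202 and in the long last exon of Flt1-203. The coding end of that last exon is printed above. In it 4066 bases are intron of the full-length form, and reads of unspliced RNA there were not told apart from the soluble form. The noncoding Flt1-201, outside this comparison, held 16.1% and 19.9% of the gene's TPM by alignment. Its alignment-free shares were 4.87% and 13.5%.

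**Figure D3:**
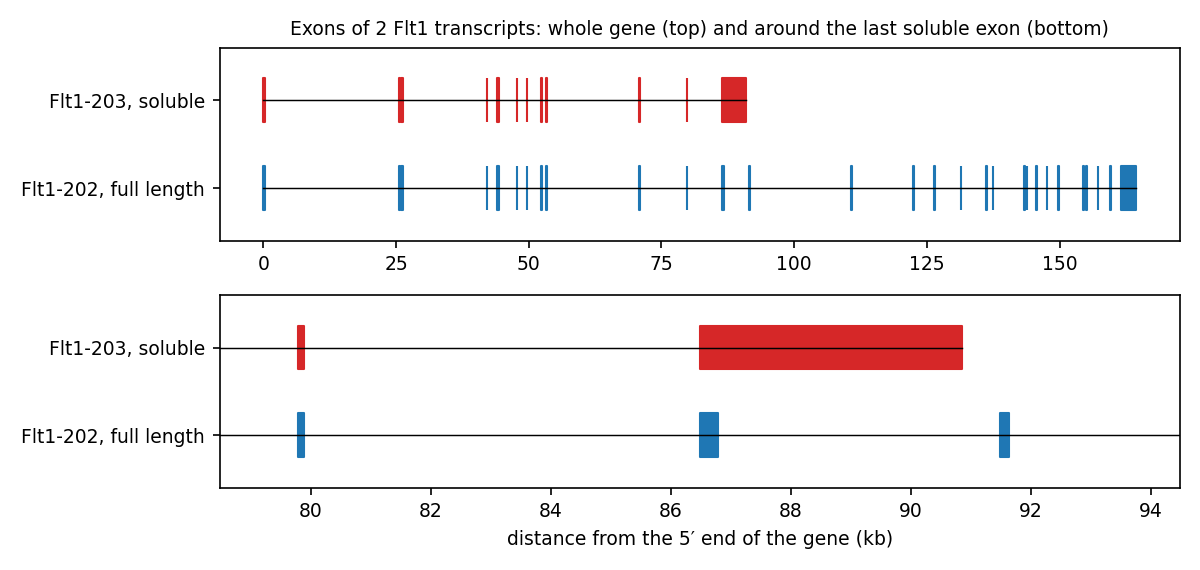
Exons of the soluble (red) and full-length (blue) Flt1 transcripts along the gene, as distance from its 5′ end in kb, for the whole gene above and around the last soluble exon below. The soluble form stops in a long exon that runs into the intron where the full-length form splices on.

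The tail exons of Pecam1 were measured with less certainty. Transcripts with the 57-base exon, which as background encodes an inhibitory tyrosine motif that binds the phosphatase SHP-2, held 62.5% of those that cover it in replicate 1 and 49.9% in replicate 2. For the 23-base exon the shares were 31.9% and 7.52%, from 189 reads against 381 without it in replicate 1 and 45.3 against 525 in replicate 2. The alignment-free tables gave 73.7% and 63.3% for the larger exon and 56.3% and 40.8% for the smaller. Pecam1-203, without both, led in both libraries by alignment, and Pecam1-204, with both, led in both alignment-free tables. The credible interval of Pecam1-204 ran from 0.00297 to 3.74 TPM in replicate 1 and from 0.0203 to 1.55 TPM in replicate 2, so neither share is well fixed.

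The 10 genes have 57 annotated transcripts, 34 of them protein-coding, of which 32 of the 57 had a TPM above 0 in both alignment-based tables and 11 stood at 0 in both. Cldn5 has 1 transcript. Cldn5 aside, the same transcript led in both libraries and both quantifications in 5 of the other 9 genes, namely Ocln, Mfsd2a, Abcb1a, Abcg2 and Slco1a4, against 67.1% of 11756 nuclear protein-coding genes at 1 TPM or more with at least 2 transcripts. In Tjp1, Slc2a1, Pecam1 and Flt1 the leader differed among the 4 tables.

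Ordered by mean TPM, 6 of the 9 adjacent pairs of barrier genes were apart, in that the lower library of the higher gene lay above both libraries of the lower gene. The other 3 pairs overlapped, Mfsd2a with Slc2a1, Abcg2 with Flt1 and Pecam1 with Slco1a4. The credible intervals of Flt1 and Pecam1, of Slco1a4 and Abcb1a and of Abcb1a and Ocln also overlapped in both libraries. By these gene intervals, the neighbours are not separated by the precision of a single library. The interval of Abcb1a-201 alone ended at 5.16 and 5.27 TPM, below those of Slco1a4, which began at 8.38 and 5.44 TPM. Between Tjp1 and Cldn5, Cldn5 and Mfsd2a, and Slc2a1 and Abcg2, neither the libraries nor the intervals overlapped. By the alignment-free quantification 1 pair overlapped, Pecam1 with Flt1, and Tjp1 still led, with 66.7 and 61.8 TPM against 56.6 and 60.6 TPM for Cldn5.

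The 2 animals were next compared gene by gene. After scaling of the reads by the TMM factors of edgeR, in 0 of 10 genes was the higher library 25% or more above the lower one, against 6.79% of 12689 genes with a mean of 100 reads or more, a share that would give fewer than 1 of 10 genes, so the count does not set the barrier genes apart. No barrier gene passed that limit with spike-in scaling, with unfiltered TMM or with alignment-free counts either. The same held with the size factors of DESeq2, which were 1.00 in both libraries and so left the reads unscaled. The median size of the log2 ratio was larger over the 10 genes than over all 12689, at 0.12 against 0.089. Flt1 had the highest ratio of replicate 2 over replicate 1, 1.12 with a 95% interval of 1.04 to 1.22, and the intervals of Slc2a1 (1.09) and Mfsd2a (1.11) also lay above 1. Slco1a4 had the lowest, 0.880 with an interval of 0.767 to 1.01, and the intervals of the remaining 7 genes, Slco1a4 included, held 1. Among them, Cldn5 had a ratio of 1.08 with an interval of 0.989 to 1.17. These intervals cover counting error only. The share of all 12689 genes whose interval lies off 1 is not given here, so these counts do not set the barrier genes apart.

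By TPM, 1 of 10 genes was 25% or more apart, Slco1a4 at 1.62-fold, against 13.8% of the same 12689 genes. Slco1a4 was also past 1.5-fold, as were 3.34% of all genes by TPM and 1.77% by TMM-scaled reads. Its TPM of transcripts of 1000 bases or more had a ratio of 0.852, and its scaled reads one of 0.880, so the wide gap was seen only where the short transcript carried weight among these 3 measures.

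**Figure D4:**
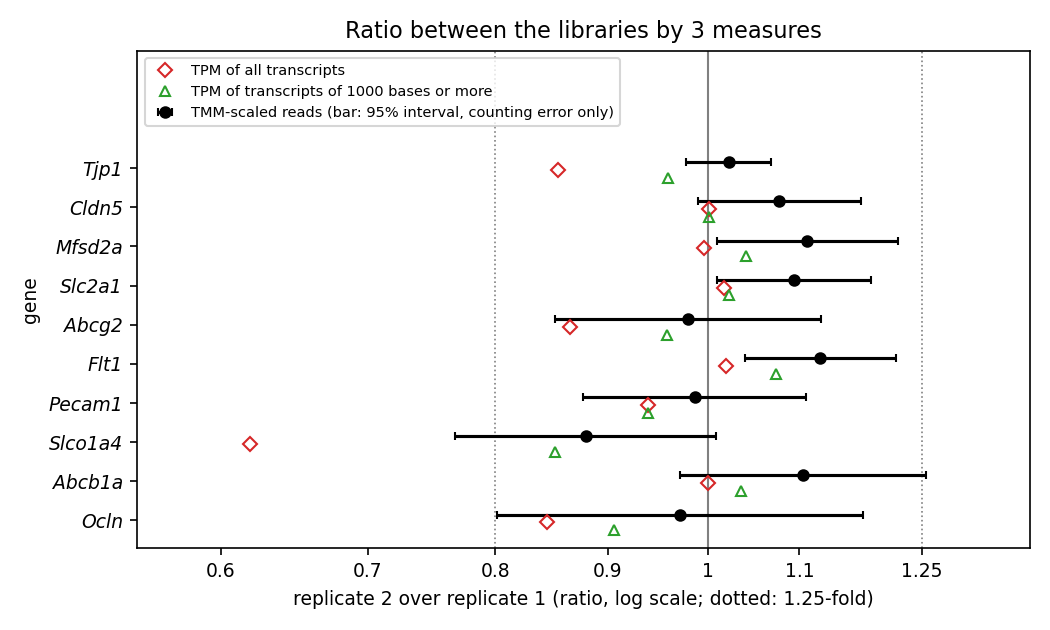
Ratio of replicate 2 over replicate 1 on a log scale for each barrier gene by TMM-scaled reads (black, with 95% counting intervals), by TPM (red diamonds) and by TPM of transcripts of 1000 bases or more (green triangles). All black points lie within the dotted limits, where the libraries are 25% apart, and the red diamond of Slco1a4 lies outside them.

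The quantifications gave similar gene levels once both were rescaled to nuclear protein-coding genes. All 10 barrier genes were then within 1.5-fold in both libraries, as were 89.3% of 14468 genes at 1 TPM or more. The ratio of alignment-free over alignment-based level was lowest for Tjp1, at 0.676 and 0.691, and highest for Slc2a1, at 1.29 in replicate 1. As deposited, 6 of 10 were within 1.5-fold, since nuclear protein-coding genes took 79.1% and 80.0% of the TPM in the alignment-free tables and 50.8% and 48.5% in the alignment-based ones. The share of all genes within 1.5-fold as deposited is not given here.

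Relative to Cdh5, the gene of the endothelial adherens-junction protein VE-cadherin at 9.43 and 7.86 TPM, Cldn5 was 4.45 and 5.34 times as high in replicates 1 and 2 and Mfsd2a 2.46 and 2.94 times. Pecam1 stood close to Cdh5, at 1.03 and 1.16 times its level, and Abcb1a and Ocln below it, at 0.541 and 0.649 times and 0.505 and 0.511 times. These are ratios of levels in whole tissue and say nothing of the amount per cell.

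Each barrier gene was next set beside relatives of its family, by the ratio of their TPM. Of 24 relatives, 16 had at least 20 reads in both libraries, and of these 10 lay below their barrier gene in both libraries, 4 above it and 2 on either side. Cldn5 was the highest of the 6 claudins listed. It was 29.3 and 38.5 times as high as Cldn1 and 1.58 and 1.90 times as high as Cldn12, which had 26.5 and 22.1 TPM. Cldn3, which has been discussed as a barrier claudin, had 11 and 14 reads, or 0.51 and 0.59 TPM. Cldn11, the claudin of myelin, had 12.6 TPM in replicate 1 and 22.3 TPM in replicate 2, and the summed level of 8 oligodendrocyte-lineage markers likewise was 256.9 and 411 TPM. The part of those cells in the Cldn11 level was not tested.

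Ocln exceeded Marveld2, the gene of tricellulin at 1.26 and 0.92 TPM, by 3.78 and 4.37 times. Tjp3, a relative of Tjp1 that encodes ZO-3, had 10 and 12 reads, or 0.19 and 0.36 TPM.

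The 4 relatives above their barrier gene were Slc2a3, Abcg4, Slco1c1 and Kdr. Slc2a1 was 0.364 and 0.395 times as high as Slc2a3, the neuronal glucose transporter at 62.6 and 58.5 TPM, and 32.1 and 35.6 times as high as the insulin-responsive Slc2a4. Abcg2 was 0.369 and 0.378 times as high as Abcg4, at 36.1 and 30.5 TPM. Slco1a4 was 0.235 and 0.162 times as high as Slco1c1, the thyroxine carrier of barrier endothelium and astrocytes, at 43.4 and 38.9 TPM. Flt1 stood just below Kdr, the signalling VEGF receptor 2 at 13.0 and 12.6 TPM, with ratios of 0.890 and 0.937, and was 6.95 and 7.29 times as high as Flt4. The credible intervals of Flt1, 10.5 to 13.2 TPM and 10.7 to 13.1 TPM, held the Kdr values. Flt1 and Kdr are thus not separated by the precision of a single library.

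Within the efflux pumps, Abcb1a was 3.54 and 3.19 times as high as Abcb1b, its close paralog, which had 39.9 and 65.7 reads. The split of reads between these paralogs is uncertain. Abcb1a was also 2.98 and 4.77 times as high as Abcb4. Abcg2 and the cholesterol exporter Abcg1 were not ordered, since Abcg1 had 13.0 TPM in replicate 1 and 15.9 TPM in replicate 2, on either side of Abcg2. Slco1a4 and Slco2b1, at 7.59 and 7.91 TPM, were likewise not ordered. The closest OATP genes, Slco1a1, Slco1a5 and Slco1a6, had at most 5 reads in either library, and Mfsd2b had 23 and 16 reads.

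General vessel markers were read beside the barrier genes, which does not show which cells made the barrier genes. All 16 pan-endothelial genes were detected, with a median of 8.75 ± 0.640 TPM (SD, n = 2), led by Egfl7 at 36.3 and 36.8 TPM, Itm2a at 28.1 and 24.0 TPM and Cd34 at 14.4 and 17.7 TPM. The lowest was Ly6a, at 2.99 and 1.62 TPM. Markers of brain tissue were present as well, which does not tell cortex from other brain regions. All 7 neuronal markers were detected, at a median of 511 ± 14.4 TPM, and all 8 astrocyte markers, at 72.5 ± 2.63 TPM. These medians lay above that of the barrier genes, while single genes overlapped, as Tjp1 and Cldn5 stood above the astrocyte gene Gjb6 at 11.8 and 15.3 TPM.

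Partners of the tight and adherens junction were mostly detected. Of 12 junction genes 11 were detected, with a median of 8.72 ± 0.619 TPM. The widely expressed Ctnnb1 (beta-catenin, 336 and 286 TPM) and Ctnna1 (19.2 and 16.2 TPM) led, followed by the endothelial adhesion gene Esam at 14.6 and 13.9 TPM. Marveld2 was the 1 gene under the limit, in replicate 2.

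Among 15 other transporters described at the barrier, 14 were detected, at a median of 41.2 ± 3.13 TPM, well above that of the 10 barrier genes. The highest were the taurine carrier Slc6a6 at 106 and 91.5 TPM, the amino acid carrier chain Slc3a2 at 97.7 and 97.8 TPM and the efflux pump Abcc5 at 90.5 and 79.5 TPM, all of which other brain cells also express. Slc19a3, a thiamine carrier, was the lowest, at 0.86 and 0.59 TPM.

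The genes listed for Wnt signalling and barrier regulation were all detected, 18 of 18, at a median of 6.11 ± 0.396 TPM. Apcdd1, a Wnt inhibitor and target, had 34.7 and 35.6 TPM, and the ligand gene Wnt7b, known in neurons, had 25.9 and 19.4 TPM. Foxq1, a transcription factor of brain endothelium, was the lowest at 1.81 and 1.77 TPM. The VEGF ligands and receptors were also all detected, 10 of 10, at a median of 12.2 ± 3.75 TPM. They were led by the semaphorin receptor Plxnd1 at 90.4 and 67.3 TPM, Vegfa at 40.9 and 34.0 TPM and Vegfb at 35.8 and 37.1 TPM, with Pgf the lowest at 1.91 and 1.32 TPM. The wide SD of that median came with Nrp2, a co-receptor also made by neurons and named after its values were seen, at 18.3 TPM in replicate 1 and 6.45 TPM in replicate 2.

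Genes of permeable or activated endothelium ranged widely. Of these 10 genes 6 were detected, near the 59.1% of nuclear protein-coding genes, and their median was 2.37 ± 0.244 TPM. The leukocyte adhesion genes Sele and Selp had 4 and 2 reads and 1 and 1 read, Esm1, a tip-cell gene, had 0.43 and 0.32 TPM, and Angpt2 had 0.97 and 1.06 TPM. Plvap, the diaphragm gene of fenestrated vessels, had 2.77 and 3.52 TPM, and the vessel growth gene Apln had 8.18 and 9.16 TPM, both named after their values were seen. The highest of this list, above the barrier median, were Vcam1 at 18.5 and 17.3 TPM and the caveolar genes Cav2 at 15.6 and 14.7 TPM and Cav1 at 12.7 and 14.2 TPM. Of 5 lymphatic genes 3 were detected, near the 59.1% of nuclear protein-coding genes, with a median of 1.65 ± 0.0354 TPM over the 5. The detected genes were Pdpn at 5.25 and 5.34 TPM, Prox1 at 3.90 and 3.94 TPM and Flt4 at 1.67 and 1.62 TPM. Which cells made them was not tested. Lyve1 was under the limit in replicate 1, at 0.57 and 1.30 TPM. Ccl21a had 0 reads, which allows up to 3 reads in a library.

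**Figure D5:**
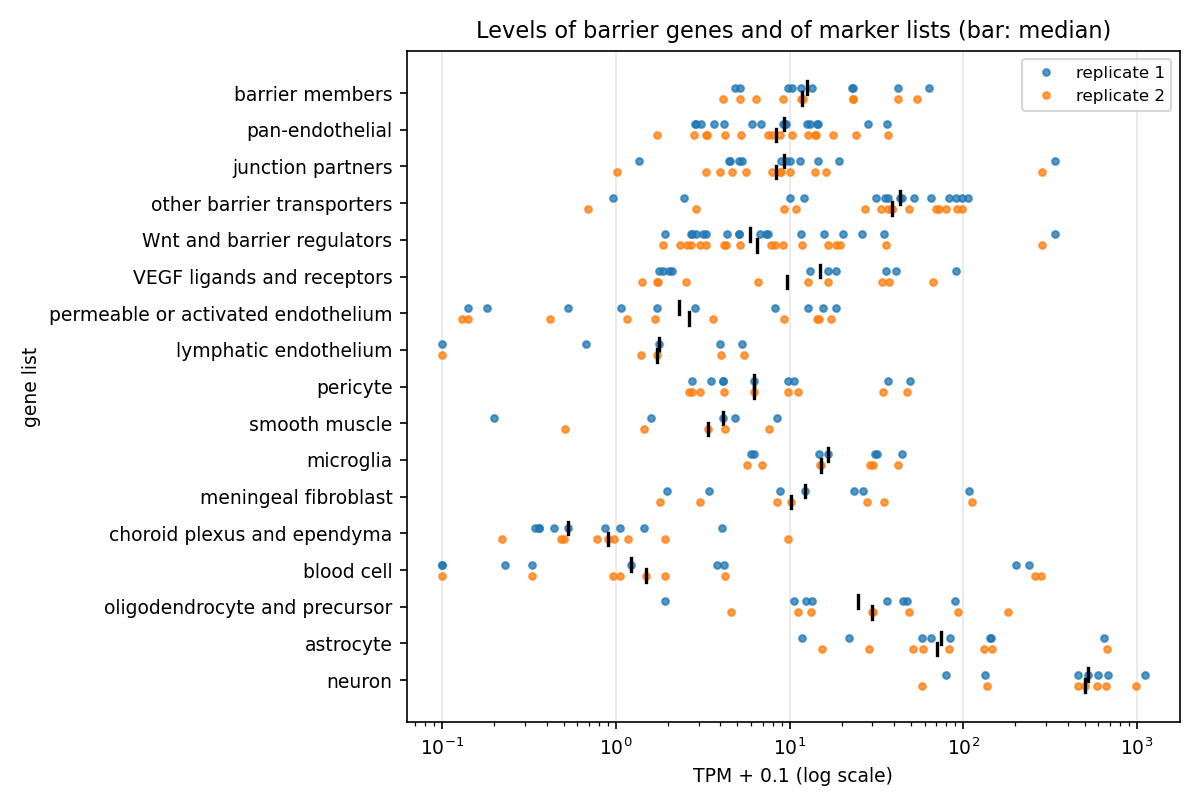
TPM + 0.1 on a log scale of every gene of the barrier list and of 16 further lists, with replicate 1 in blue, replicate 2 in orange and black bars for the medians. The barrier genes span 4.02 to 63.5 TPM and overlap most lists gene by gene, with a median below those of the neuronal and astrocyte lists and above that of the choroid plexus list.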

How the data were processed

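Total RNA of the left cortex of 2 female mice was sequenced, 1 library each. Per the deposited README files, the authors aligned reads to mm10 with annotation M21 and derived expected counts and TPM. The same tables hold the authors' transcript shares in percent and credible intervals, per the file headers, whose coverage level the sources do not state. A second, alignment-free set of tables holds the authors' estimated counts and TPM per transcript, per the deposited README files, which were summed per gene here. For aligner, quantifiers and versions: not given in the sources used here. Reads were assigned to mm10, so alleles from the CAST/EiJ parent can match less well. This was not tested.

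Effective lengths in the alignment-based tables are 99 bases under the length, and by the alignment-free quantification 348.1 and 346.1 bases under it, so short transcripts gain TPM per read. Levels are deposited TPM, with mean and SD over n = 2. Ratios of levels are of TPM as deposited, and the log2 ratios of the closing section are of TPM + 0.1. Ratios between libraries used expected counts scaled by TMM (edgeR 4.0.16, limma 3.58.1, R 4.3.3; DESeq2 1.42.0 as an alternative), over genes with a mean of 100 reads or more, with exact conditional binomial 95% intervals for counting error. The scaling steps were tested on simulated data. Exons came from GENCODE M21. Tables were handled in Python 3.11.15 with pandas 2.3.3 and numpy 2.4.6, intervals came from scipy 1.17.1, and plots from matplotlib 3.10.9. The members and gene lists were chosen with earlier results of these data known. Genes named are the members, their relatives, and of each list the 3 highest, the lowest and those under 1 TPM, except where said, and a few such items are left unreported. Transcripts named hold at least 5% of a gene in both libraries of either quantification, except Tjp1-207, named because it lacks the alpha exon. Abcb1a-204, also under that share, is named for its interval. Overlapping genes with exons on the members had 0 reads. No sample was left out. No p-value was computed.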

Additional observations from a re-analysis of the deposited data

How the results depend on the processing

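The median of the 10 barrier genes, 12.1 TPM, was 24.3 TPM when rescaled to nuclear protein-coding genes, 18.3 TPM in the alignment-free tables and 10.4 TPM with transcripts of 1000 bases or more, an alternative chosen after seeing the data, and 11.7 to 12.5 TPM when either library was left out. At 10 TPM in both libraries 6 of 10 genes were detected. The share of all genes at 10 TPM is not given here, so this count does not set the barrier genes apart. Overlapping neighbours numbered 1 in the alignment-free tables and 1 with transcripts of 1000 bases or more, against 3. By TPM 1 gene was 25% or more apart between libraries, against 0 by TMM, and 6 genes were within 1.5-fold between quantifications as deposited, against 10. Leaving out a library left 8 of 10 genes with the same leading transcript, against 6 (Cldn5, with 1 transcript, included). It left 10 to 12 relatives below their barrier gene. Neither count could fall in this way, since fewer values have to match when a library is left out.

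The log2 ratio of Abcg2 over Abcg1, -0.22, ran from -0.46 to 0.032 when either library was left out. That of Slco1a4 over Slco2b1, 0.05, was -0.14 by the alignment-free quantification and ran from -0.32 to 0.42 when either library was left out. The cause was not tested. Over settings other than leaving out a library, 101 values for single genes, pairs and lists were recomputed, of which 1 changed sign and 62 moved by more than the SD. No paired analysis was possible because the samples form 1 group. Few reads lie behind the 8 relatives with under 20 in a library and behind Slco1a4-202, and the interval of the long Pecam1-204 was also wide.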

Other observations

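Cells that wrap and surround the capillaries were also represented. All 9 pericyte genes were detected, with a median of 6.14 ± 0.0424 TPM (SD, n = 2), led by Rgs5 at 49.6 and 47.2 TPM, Vtn at 36.8 and 34.2 TPM and Cspg4, which oligodendrocyte precursors share, at 10.5 and 11.1 TPM. The lowest was the potassium channel gene Kcnj8, at 2.65 and 2.52 TPM. Of 5 smooth muscle genes 4 were detected, at a median of 3.66 ± 0.544 TPM, with Acta2 at 8.37 and 7.47 TPM and Cnn1 at 3 and 9 reads. All 7 microglial genes were detected, at a median of 15.8 ± 1.07 TPM, with the receptor gene P2ry12 at 31.7 and 30.3 TPM.

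All 7 meningeal fibroblast genes were detected, at a median of 11.1 ± 1.42 TPM, with Igf2 at 108 and 112 TPM and Col1a1 at 26.3 TPM in replicate 1 and 35.0 TPM in replicate 2. Choroid plexus and ependymal genes were low, with 2 of 9 detected and a summed level of 8.59 TPM in replicate 1 and 15.9 TPM in replicate 2, of which Ttr gave 3.98 and 9.70 TPM. Of 9 blood cell genes 4 were detected, and the haemoglobin gene Hbb-bs had 240.4 and 282 TPM. The oligodendrocyte lineage differed more between the libraries. All 8 of its genes were detected, and their median TMM-scaled ratio of replicate 2 over replicate 1 was 0.59 on the log2 scale, against 0.069 for the barrier genes. Mbp, the myelin basic protein gene, had 90.0 TPM in replicate 1 and 180.8 TPM in replicate 2.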
